A study of Mus musculus with 4 samples.

Results

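Homeostatic and activation genes of microglia, the resident macrophages of the brain, were followed in nuclei from the cortex and hippocampus of mice. The set holds 10 genes of the 32286 features counted, found by their symbols. The homeostatic genes are *P2ry12*, *Tmem119*, *Cx3cr1* and *Siglech*, and the activation genes are *Trem2*, *Apoe*, *Axl*, *Itgax*, *Cd68* and *Spp1*. The 4 libraries come from 5-week-old mice, 1 mouse each. Those of the 2 controls are labelled Sel1L flox/flox (written Sel1L fl/fl), and those of the 2 mutants are labelled Sel1L Syn-Cre (written Sel1L SynCre). All mice carry the floxed *Sel1l* alleles, and the mutants also carry a Cre driven by the Synapsin I promoter, which is active in neurons. Microglia are therefore not the cells in which the Cre is meant to act. SEL1L is a subunit of the endoplasmic reticulum-associated degradation complex. The paper reports that its protein was lost in only a part of the neurons, to a degree that differed between brain regions. It was lower on Western blots of cortex and hippocampus. The comparison asks whether the genes of microglia differ beside such neurons.

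In the healthy brain, microglia survey their surroundings with the purinergic receptor P2RY12 and receive a restraining signal from neurons through CX3CR1, the receptor of fractalkine. TMEM119 and the sialic acid-binding lectin SIGLECH mark the same resting state. Near dying cells, damaged myelin or protein deposits, microglia lower these genes and raise a program that depends in part on TREM2, a lipid-sensing receptor. Its genes include the lipid carrier *Apoe*, the clearance receptor *Axl*, the integrin *Itgax* (CD11c), the lysosomal protein *Cd68* and the secreted protein *Spp1* (osteopontin).

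The libraries held 7366 to 12599 deposited nuclei and 74082610 to 122870443 UMIs (unique molecular identifiers, which count RNA molecules), and 6805 to 11116 nuclei were kept. Pairs of libraries shared 10 to 34 cell barcodes, at most 0.462% of the smaller library. *Sel1l* RNA, counted over the whole gene from its 3′ end, did not fall with the label. It was at 97.1 and 90.0 CPM (a gene's UMIs scaled to a common total of UMIs per library) in both Sel1L fl/fl libraries and at 155 and 128 CPM in both Sel1L SynCre libraries. The Cre RNA had 236 and 221 UMIs in the libraries labelled Sel1L SynCre, but also 409 UMIs in Sel1L fl/fl replicate 1 against 0 in replicate 2. Where the deleted part lies is not given in the sources used here, so these *Sel1l* counts may not bear on the deletion. Each direction given here is one between libraries as labelled. In neuron-like nuclei, 3 genes that endoplasmic reticulum stress induces, picked after their values were seen, were higher under the label Sel1L SynCre. *Derl3* had 44 and 34 UMIs against 1015 and 646 (edgeR adjusted p 0.00729), *Herpud1* 1506 and 1243 against 3186 and 2598 (0.0282), and *Hspa5* 1922 and 1360 against 3876 and 2984 (0.0282). In microglia-like nuclei *Sel1l* was at 120, 109, 99.8 and 119 CPM and Cre at 2, 0, 0 and 1 UMIs, with replicates 1 and 2 of the control label first and replicates 1 and 2 of the mutant label after them, as for all values given as 4 numbers. Replicate 1 of each label was male and replicate 2 female by *Ddx3y* (48.6 and 48.6 CPM against 0.0146 and 0.0453 CPM).

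Clusters were named from marker genes that did not include the 10 genes. A cluster of 2248 nuclei had 8 of 8 microglia markers (*Csf1r*, *C1qa*, *Ctss* and others) and was split again. Of its 3 subclusters, 1 with 108 nuclei had 7 of 7 markers of perivascular macrophages and was taken apart from the microglia. The remaining 2140 microglia-like nuclei were 776, 607, 437 and 320 per library, with medians of 1882.5, 1746, 1796 and 1921 UMIs. They made up 6.98% (95% Wilson interval 6.52% to 7.47%) and 7.72% (7.15% to 8.33%) of the nuclei labelled Sel1L fl/fl, and 5.80% (5.29% to 6.35%) and 4.70% (4.22% to 5.23%) of those labelled Sel1L SynCre. Summed per library, these nuclei gave 1537432, 1140818, 851941 and 662130 UMIs. The summed level of the 8 microglia markers was close between libraries, at 6615, 7011, 7202 and 7032 CPM. RNA of other cells was also present in them, and not evenly. The 7 neuron markers were all detected and summed to 1549, 951, 1038 and 1057 CPM, so that Sel1L fl/fl replicate 1 stood apart. The 6 oligodendrocyte markers, all detected, summed to 373 and 224 CPM against 107 and 90.6 CPM, higher under the label Sel1L fl/fl. The 6 astrocyte markers, all detected, summed to 339 and 367 CPM against 421 and 415 CPM. Of the 7 markers of perivascular macrophages, 4 were detected and *F13a1*, *Pf4* and *Cbr2* were at 0, with sums of 15.6 and 12.3 CPM against 24.6 and 33.2 CPM.

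Nearly every microglia-like nucleus held RNA of a homeostatic gene under both labels, and *Axl*, *Itgax* and *Spp1* were near 0. Among all nuclei kept, 96.1% of the *Siglech* UMIs, 88.6% of the *Tmem119* UMIs and 77.5% of the *Trem2* UMIs lay in microglia-like nuclei. Without thinning, 26 of the 2140 nuclei (1.21%) held no UMI of any homeostatic gene, and 327 (15.3%) held UMIs of all 4. By contrast, the 2140 nuclei together held 16 UMIs of *Axl*, 10 of *Itgax* and 2 of *Spp1*. The counts per library were 3, 8, 4 and 1 for *Axl*, 6, 3, 0 and 1 for *Itgax*, and 0, 1, 1 and 0 for *Spp1*. They lie at chr7:25757273-25788705 (*Axl*), chr7:128129547-128150657 (*Itgax*) and chr5:104435118-104441050 (*Spp1*). No library had more than 8 UMIs of any of these 3 genes, which did not pass the filter on low counts and were not tested.

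**Figure D1:**
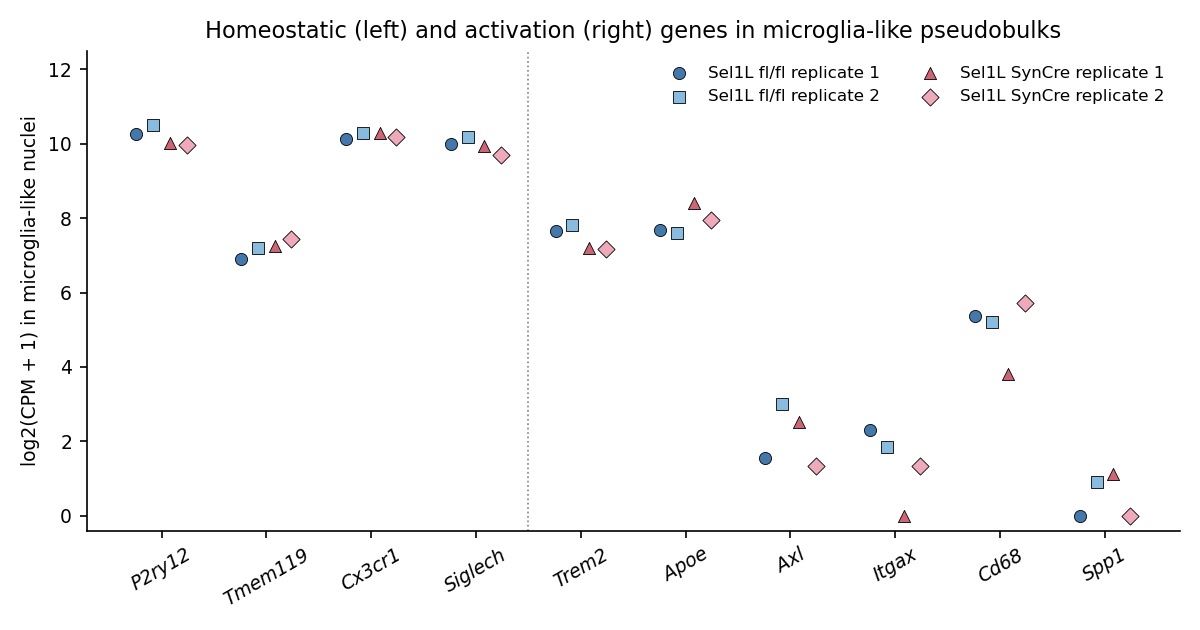
Level of the 10 genes in microglia-like nuclei, as log2(CPM + 1) on the y axis with 1 point per library (symbols as labelled). The points of *P2ry12*, *Siglech* and *Trem2* are lower and those of *Apoe* and *Tmem119* higher under the label Sel1L SynCre, while *Axl*, *Itgax* and *Spp1* rest on 16, 10 and 2 UMIs.

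The 7 genes that passed the filter were compared between labels with edgeR's quasi-likelihood test on the summed counts, with p-values adjusted by the Benjamini-Hochberg method over 10479 genes. None of the 7 was called at an adjusted p of 0.05, and 4 of them had an unadjusted p below 0.05. The same test called 6 of all the genes tested, which is 0.0573%, and 8.11% had an unadjusted p below 0.05. DESeq2 also called none of the 7. The libraries of the labels did not overlap for 5 of the 7 genes, against 39.4% of all genes tested.

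Among the homeostatic genes, *P2ry12* (ENSMUSG00000036353, chr3:59216272-59262871 on the minus strand, GRCm38), the ADP receptor that steers microglial processes, was at 1231 and 1454 CPM under the label Sel1L fl/fl and at 1033 and 999.8 CPM under the label Sel1L SynCre. Both values labelled Sel1L SynCre were the lower ones. The log2 fold change was -0.44 (SE 0.119, 95% interval -0.71 to -0.17), with an unadjusted p of 0.0048 and an adjusted p of 0.419 from edgeR.

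*Siglech* (chr7:55768178-55778925), a lectin of microglia that signals through the adaptor TYROBP, moved the same way with less distance between the groups. Its levels were 1026, 1162, 984 and 822 CPM, and replicate 1 of each label differed by less than the 2 libraries of either label did. The log2 fold change was -0.31 (SE 0.131, interval -0.61 to -0.02), with an edgeR adjusted p of 0.586.

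*Cx3cr1* (chr9:119901616-120069879), the fractalkine receptor, was at 1111, 1255, 1241 and 1164 CPM. Its groups overlapped, and the log2 fold change was -0.01 with an interval of -0.27 to 0.24, so a change of more than about that size in either direction lies outside the interval. *Tmem119* (chr5:113793729-113800516), a membrane protein of unsettled function that marks microglia, was at 118, 145, 150.2 and 174 CPM. Both values labelled Sel1L SynCre were above both others, with a log2 fold change of 0.26 (SE 0.162, interval -0.10 to 0.63) and an edgeR adjusted p of 0.705. None of the 4 homeostatic genes was called, and their median log2 fold change was -0.16 against -0.0046 for all genes tested.

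Among the activation genes, *Trem2* (chr17:48346401-48354147) was lower under the label Sel1L SynCre. Its levels were 200.3 and 223 CPM against 147 and 142 CPM, from 308, 254, 125 and 94 UMIs. The spread within each label was small beside the gap between them. The log2 fold change was -0.59 (SE 0.141, interval -0.91 to -0.27), with an unadjusted p of 0.00241 and an edgeR adjusted p of 0.308, which misses the threshold.

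*Apoe* (chr7:19696109-19699188) was higher under the label Sel1L SynCre, at 203 and 195 CPM against 336 and 248 CPM. The highest value, in Sel1L SynCre replicate 1, accounted for most of the gap. The log2 fold change was 0.52 (SE 0.168, interval 0.14 to 0.90), with an unadjusted p of 0.0126 and an edgeR adjusted p of 0.493. Without Sel1L SynCre replicate 1 the log2 fold change was 0.26. *Trem2* and *Apoe*, a receptor and a ligand that belong to the same activation program, therefore lay on opposite sides of 0.

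*Cd68* (chr11:69664213-69666153) was at 40.3, 35.9, 12.9 and 51.3 CPM, from 62, 41, 11 and 34 UMIs. The libraries labelled Sel1L SynCre held both the lowest and the highest value. Its log2 fold change of -0.36 had an interval of -1.41 to 0.69 and became 0.37 without Sel1L SynCre replicate 1. The median over the 3 activation genes tested was -0.36, against -0.0046 for all genes. With 3 genes, this median is the value of *Cd68* itself and shares its wide interval.

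**Figure D2:**
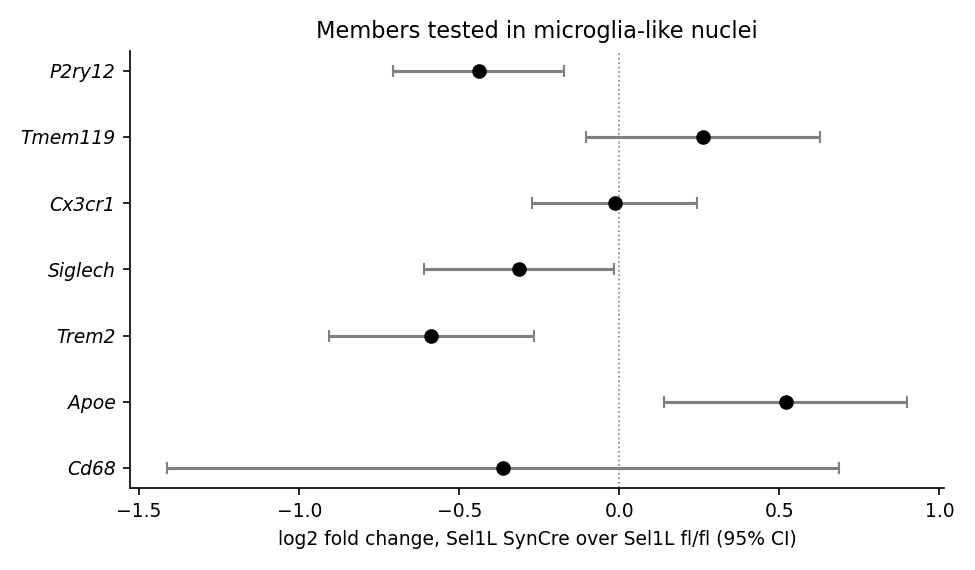
Log2 fold change (x axis, Sel1L SynCre over Sel1L fl/fl) of the 7 genes tested in microglia-like nuclei, with bars for the 95% interval from edgeR. The interval of *Trem2* runs from -0.91 to -0.27 and that of *Apoe* from 0.14 to 0.90, and no gene passed the adjusted threshold.

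Of the 7 genes tested, *P2ry12*, *Siglech* and *Trem2* had lower levels in both libraries labelled Sel1L SynCre, so their promoters are shown, from 250 bases before to 50 bases after the annotated start (RefSeq, GRCm38.p6). They lie at chr3:59262936-59263235 on the minus strand, chr7:55767934-55768233 on the plus strand and chr17:48346151-48346450 on the plus strand. Capitals mark matches on either strand to GAGGAAG, a sequence bound by PU.1, the myeloid transcription factor.
P2ry12: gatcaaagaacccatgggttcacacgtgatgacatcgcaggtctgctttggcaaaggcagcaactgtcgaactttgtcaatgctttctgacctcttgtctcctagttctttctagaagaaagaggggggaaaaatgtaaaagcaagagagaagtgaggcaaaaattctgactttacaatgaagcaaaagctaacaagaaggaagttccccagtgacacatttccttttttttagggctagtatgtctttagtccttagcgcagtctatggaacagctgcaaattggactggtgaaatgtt
Siglech: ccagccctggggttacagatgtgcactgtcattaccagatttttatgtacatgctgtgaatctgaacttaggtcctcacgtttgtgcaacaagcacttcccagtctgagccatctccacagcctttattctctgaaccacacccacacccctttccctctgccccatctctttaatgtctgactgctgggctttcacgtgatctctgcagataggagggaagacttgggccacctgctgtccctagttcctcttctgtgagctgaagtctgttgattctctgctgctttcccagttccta
Trem2: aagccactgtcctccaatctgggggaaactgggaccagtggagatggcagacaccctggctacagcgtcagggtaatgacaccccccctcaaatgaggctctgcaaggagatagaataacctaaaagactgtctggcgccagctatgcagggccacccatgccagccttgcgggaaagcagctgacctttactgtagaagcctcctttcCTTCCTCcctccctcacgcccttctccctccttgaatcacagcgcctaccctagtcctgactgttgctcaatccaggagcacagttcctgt

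Of these 3 windows only that of *Trem2* held the motif, which begins at position -41 from the start. Among the 9 genes of the set with a promoter listed, *Trem2*, *Axl* and *Spp1* held it in at least 1 window, and 13.6% of 32851 promoters of the same length did. Shorter or other forms of the PU.1 site were not searched. A match describes letters and not a bound site.

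Shares of nuclei with a UMI were compared after thinning each nucleus to 2000 UMIs, which leaves out shallower nuclei (447, 383, 255 and 174 of them) and kept 329, 224, 182 and 146. *P2ry12* was found in 86.6% (95% Wilson interval 82.5% to 89.9%) and 95.5% (92.0% to 97.6%) of nuclei labelled Sel1L fl/fl, and in 85.2% (79.3% to 89.6%) and 83.6% (76.7% to 88.7%) of those labelled Sel1L SynCre. *Trem2* was found in 28.0% (23.4% to 33.0%) and 32.1% (26.4% to 38.5%) against 24.7% (19.0% to 31.5%) and 24.0% (17.8% to 31.5%). *Apoe* was found in 26.4% (22.0% to 31.5%) and 28.6% (23.1% to 34.8%) against 39.6% (32.7% to 46.8%) and 33.6% (26.4% to 41.6%).

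The groups did not overlap for these 3 genes, nor for *Axl* and *Itgax*, which had UMIs in few nuclei. The exact two-sided permutation p was 0.333 for each, the smallest that 2 libraries against 2 allow. How often the shares of other genes do not overlap was not computed, and those of *Axl* overlapped without thinning. With doublets kept the *P2ry12* shares overlapped, at 78.7%, 89.6%, 80.4% and 76.5%. Its difference of -6.72 points rested on Sel1L fl/fl replicate 2, without which it was -2.26 points, and ran to -11.2 points without replicate 1 of that label. Without thinning, *Trem2* was in 31.4%, 34.8%, 24.7% and 24.4% of nuclei and *Apoe* in 30.9%, 29.5%, 43.9% and 34.7%. The share with *Itgax* was 0 of 182 and 0 of 146 thinned nuclei in the libraries labelled Sel1L SynCre, which allows up to 1.65% and 2.05% of nuclei with a UMI, and 1 of 329 and 2 of 224 in the others, so no difference was detectable at this depth. The intervals and limits cover counting error only. In neuron-like nuclei at the same depth, where these genes serve as background, *Trem2* was found in 0.172%, 0.133%, 0.0984% and 0.0769%, *Apoe* in 5.95%, 6.22%, 11% and 7.48%, and *P2ry12* in 7.86%, 9.56%, 8.97% and 7.85%.

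The genes were found together in a nucleus about as often as their separate shares give. Over 881 nuclei with at least 2000 UMIs, the 21 pairs of genes with an expected count of 20 or more had ratios of found to expected between 0.845 (*Tmem119* with *Cd68*) and 1.18 (*Trem2* with *Cd68*). *Trem2* and *Apoe* were found together in 107 nuclei, against 106 expected. *P2ry12* and *Apoe* were found together in 293 nuclei, against 294 expected. Since *P2ry12* was found in most of these nuclei, its ratios have little room to leave 1.

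As a sum of UMIs that is not corrected for gene length, the activation genes made up 11.4% and 10.4% of the UMIs of all 10 genes in the microglia-like nuclei labelled Sel1L fl/fl, and 12.8% and 12.3% in those labelled Sel1L SynCre. The mean difference was 1.69 percentage points. *Apoe* set its direction, since without it the shares were 6.61% and 6.28% against 4.63% and 5.85%, a mean difference of -1.20 points.

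Within the microglia-like nuclei, 1 subcluster of 27 nuclei stood out, led by the chemokine genes *Ccl3* and *Ccl4*, the stress-induced factor *Atf3*, and *Itgax*. It held 16 and 7 nuclei labelled Sel1L fl/fl, which are 1.95% (95% Wilson interval 1.20% to 3.14%) and 1.13% (0.548% to 2.31%) of the microglia and macrophage cluster, and 2 and 2 labelled Sel1L SynCre, which are 0.431% (0.118% to 1.56%) and 0.583% (0.160% to 2.10%). *P2ry12* was found in 85.2% of these nuclei against 83.4% of the 2113 in the main microglia subcluster, *Cx3cr1* in 85.2% against 83.5%, *Siglech* in 48.1% against 78.1% and *Tmem119* in 14.8% against 23.5%. They held 4 of the 10 *Itgax* UMIs and no *Spp1*. *Trem2* was found in 48.1% against 29.7% and *Apoe* in 40.7% against 33.6%. These shares are not thinned, and the median depth was 2338 against 1830 UMIs. The 10 genes took no part in the clustering, but the leading genes, *Itgax* among them, were picked from these same nuclei. The values describe the subcluster and test nothing. Without integration of the libraries no such subcluster was formed. The microglia-like nuclei then split into 790 nuclei, 756 of them from Sel1L fl/fl replicate 1, and 1351 nuclei. Neither part was led by these genes.

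**Figure D3:**
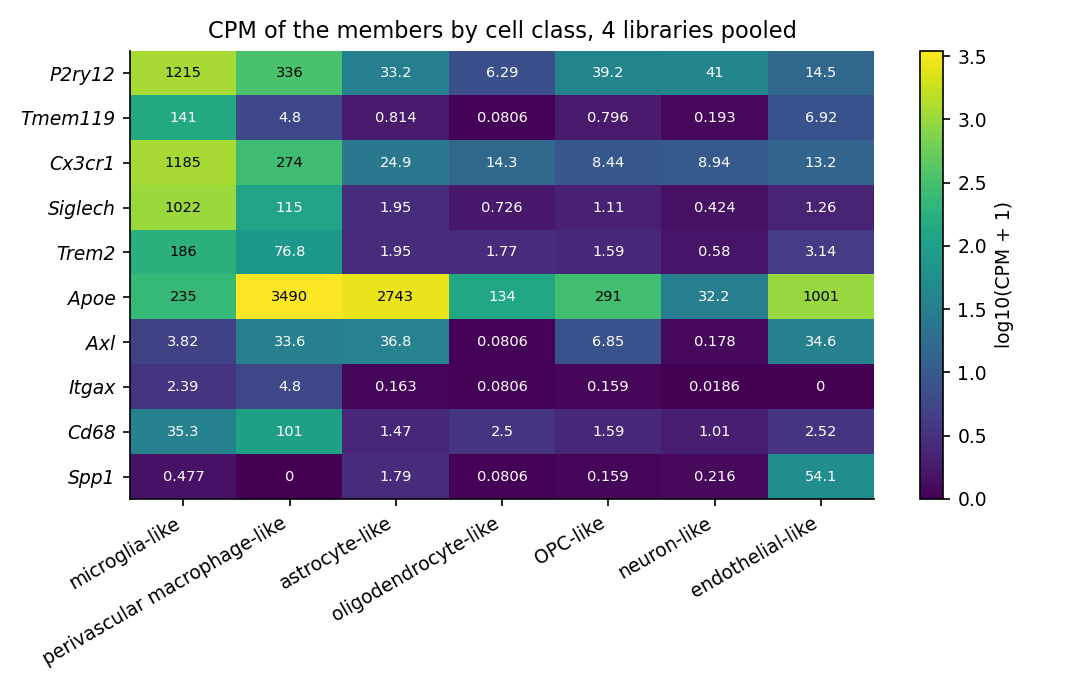
CPM of the 10 genes (rows) in 7 cell classes (columns), with the UMIs of the 4 libraries pooled and the colour on a log10(CPM + 1) scale. *Siglech*, *Tmem119* and *Trem2* are highest in microglia-like nuclei, while *Apoe* is highest in perivascular macrophage-like (3490 CPM) and astrocyte-like nuclei (2743 CPM).

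Outside microglia, the 10 genes fell into 3 patterns. *Siglech*, *Tmem119*, *Trem2* and *Cx3cr1* were highest in microglia-like nuclei. *Siglech* was at 822 to 1162 CPM there, at 83.9 to 176 CPM in perivascular macrophage-like nuclei and at no more than 3.29 CPM in any library of the other 5 classes, whose ranges overlapped. *Tmem119* was at 118 to 174 CPM in microglia-like nuclei and at no more than 10.4 CPM elsewhere. *Trem2* was at 142 to 223 CPM against 0 to 176 CPM in perivascular macrophage-like nuclei, ranges that overlap, and at most 5.40 CPM in the other classes. Perivascular macrophage-like nuclei held *Cx3cr1* at 176 to 315 CPM. It was less confined to microglia than *Siglech*, with 63.1% of its UMIs in microglia-like and 30.6% in neuron-like nuclei. Its level was 8.94 CPM in neuron-like nuclei with the libraries pooled, and 11.8 to 32.5 CPM in astrocyte-like nuclei. The annotated span of *Cx3cr1* overlaps 9 other genes. Among them, *Gorasp1*, *Csrnp1* and *Xirp1* lie on the same strand and share no exonic bases with it. The part of these genes in the *Cx3cr1* counts was not tested.

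*P2ry12* was also highest in microglia-like nuclei, yet 65.5% of its UMIs lay in neuron-like nuclei, the most numerous class. Its level there was 34.7, 48.0, 45.0 and 39.0 CPM, with a log2 fold change of -0.02 and an edgeR adjusted p of 0.974. That is 2.82% to 4.36% of the level in microglia of the same library, where *Siglech* in neurons was at 0.0290% to 0.0591% and the 8 microglia markers at 0.279% to 0.304%. *P2ry12* lies whole within *Med12l*, a gene on the opposite strand that shares exonic bases with it. *Med12l* was at 204, 181, 168 and 163 CPM in neuron-like nuclei and at 405, 579, 502 and 430 CPM in microglia-like nuclei. Whether the counting used strand is not given in the sources used here. The part of *Med12l* reads in the *P2ry12* counts was not tested.

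*Apoe*, *Axl* and *Spp1* were mainly genes of other cells. Astrocyte-like nuclei held 50.9% of the *Apoe* UMIs and 55.7% of the *Axl* UMIs, against 2.97% and 3.94% in microglia-like nuclei. Endothelial-like nuclei held 52.1% of the *Spp1* UMIs, at 54.1 CPM against 0.477 CPM in microglia-like nuclei. The leading genes of their cluster include *Slc6a13*, a gene of the fibroblast and pericyte list, beside *Flt1* and *Cldn5*. Without integration of the libraries, clusters of 278 endothelial nuclei and of 265 and 122 fibroblast and pericyte nuclei were formed. Values given for the endothelial-like class (198, 36, 244 and 125 nuclei) are therefore those of a mixture. *Cd68* had 54.5% of its UMIs in neuron-like nuclei but only at 1.01 CPM, against 35.3 CPM in microglia-like and 101 CPM in perivascular macrophage-like nuclei. No *Spp1* UMI was found in the 108 perivascular macrophage-like nuclei.

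*Apoe* had log2 fold changes of both signs in the other classes, and passed the threshold in 1 of them. In neuron-like nuclei it was at 25.5 and 27.3 CPM against 46.4 and 33.0 CPM, with a log2 fold change of 0.54 (SE 0.164) and an edgeR adjusted p of 0.245. In astrocyte-like nuclei, its main source, it was at 2254, 2711, 2946 and 2932 CPM, with a log2 fold change of 0.21 (SE 0.206) and an adjusted p of 0.760. In perivascular macrophage-like nuclei, which were too few to test, it was at 3075, 3562, 4299 and 3483 CPM.

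OPC-like nuclei (oligodendrocyte precursors) went the other way, at 229 and 471 CPM against 197 and 236 CPM. Their class held 506, 422, 284 and 248 nuclei. Without integration of the libraries, the OPC cluster held 398, 360, 278 and 245. A separate oligodendrocyte cluster, led by *9630013A20Rik* and *Bmp4*, then held 114, 64, 8 and 3. The first of these genes was among the leading genes of the OPC-like class too. By these counts, the make-up of the OPC-like class differed between labels. The part of such nuclei in the OPC values was not tested. *Apoe* in OPCs was the only call among the 10 genes in the 6 classes tested. Its log2 fold change was -0.70 (SE 0.191), with an edgeR adjusted p of 0.0139. In this class 8.59% of all genes were called. The share of all genes called was 1.18% in astrocyte-like, 0.907% in oligodendrocyte-like and 0.169% in neuron-like nuclei and 0 of 8398 genes in endothelial-like nuclei by edgeR (465 at an unadjusted p under 0.05, and 4 by DESeq2). The call rests on Sel1L fl/fl replicate 2, since without that library the log2 fold change was -0.13 with an adjusted p of 0.793, and DESeq2 gave an adjusted p of 0.912. Tested directly with library as a block, the log2 fold change in microglia less that in OPCs was 1.15 (SE 0.258, edgeR adjusted p 0.00478), the only call among 7 genes of the set in a test that called 2.47% of all genes and was added after seeing the data. It was 0.65 (adjusted p 0.0994) without Sel1L fl/fl replicate 2, 0.77 (0.579) and 1.43 (0.418) without Sel1L SynCre replicates 1 and 2, 1.06 (0.0607) with no filter and 1.02 (0.202) with doublets kept, so the call was lost in these 5 of 6 alternatives. Against astrocytes the difference was 0.25 (SE 0.297, adjusted p 0.900), and 0 of the 8 genes of the set in that test were called where 1.01% of all genes were. The smallest p among these 8 genes was that of *Cx3cr1*, 0.00788 unadjusted and 0.251 adjusted by edgeR.

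**Figure D4:**
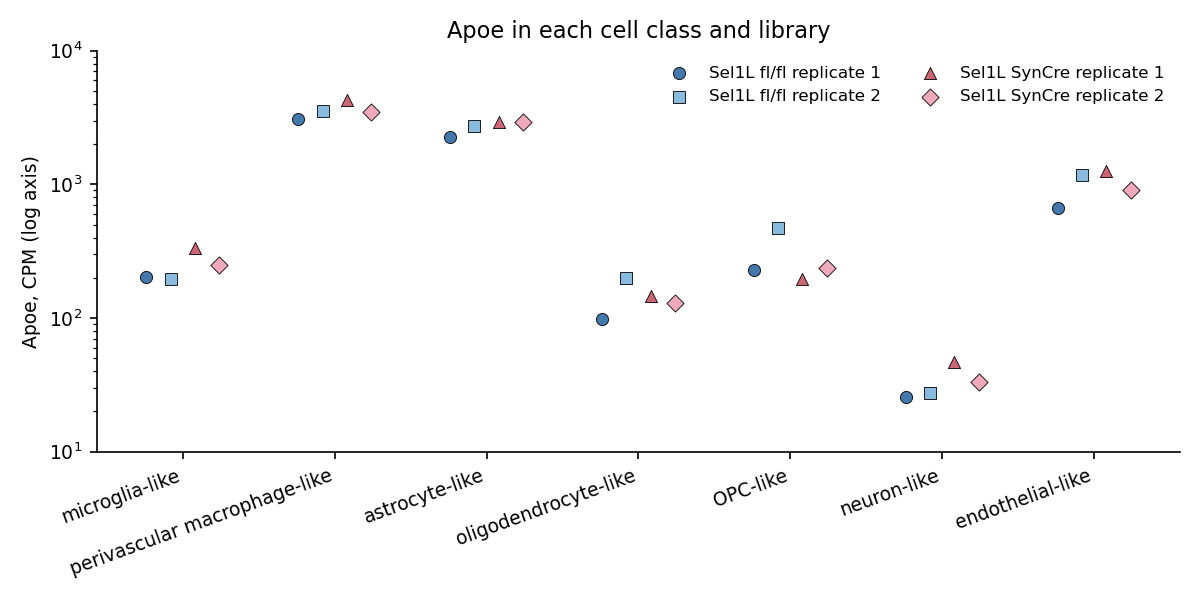
*Apoe* in CPM (y axis, log scale) in 7 cell classes, with 1 point per library (symbols as labelled). Points labelled Sel1L SynCre are higher in microglia-like, astrocyte-like and neuron-like nuclei. In OPC-like nuclei the point of Sel1L fl/fl replicate 2 (471 CPM) stands above the rest.

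The sum of the astrocyte markers in the microglia-like nuclei was higher under the label Sel1L SynCre, as *Apoe* was. It was at 339, 367, 421 and 415 CPM, where *Apoe* was at 203, 195, 336 and 248 CPM. The 6 astrocyte markers there stood at 3.92%, 3.78%, 4.09% and 4.42% of their level in astrocyte-like nuclei of the same library. *Apoe* stood at 9.0%, 7.18%, 11.4% and 8.45% of its own. The markers were uneven. *Slc1a3* made most of the sum (220, 268, 282 and 279 CPM) and stood at 10.9% to 14.9% of its astrocyte level, against 0.882% to 1.20% for *Slc1a2*. Perivascular macrophage markers were also higher under the label Sel1L SynCre (15.6 and 12.3 against 24.6 and 33.2 CPM in sum). Within that label their order was the reverse of that of *Apoe*, which was at 336 and 248 CPM. The part of either in the *Apoe* values was not tested. For *Trem2*, which is near 0 in astrocytes, the level in neuron-like nuclei was 0.801 and 0.655 CPM against 0.387 and 0.376 CPM, lower under the label Sel1L SynCre as in microglia (log2 fold change -1.0, edgeR adjusted p 0.274).

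The other genes of the microglial programs were read from lists, with CPM from here on scaled by TMM, edgeR's normalization. Counts of list genes at an unadjusted p under 0.05 by edgeR stand beside 8.11% of all genes tested in microglia. Of 20 further homeostatic genes, all were tested and 0 called in edgeR, with a median log2 fold change of -0.10, and 1 was higher and 4 were lower at an unadjusted p under 0.05. The 4 were *P2ry13*, a neighbour of *P2ry12* and also an ADP receptor (131, 133, 92.5 and 64.8 CPM), *Olfml3*, *Fcrls* and *Cst3*. The higher one was the crystallin gene *Crybb1* (82.8, 111, 207 and 165 CPM, log2 fold change 0.95, adjusted p 0.205). *Csf1r*, the receptor on which microglia depend for survival, was at 905, 902, 965 and 801 CPM.

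Of 24 further genes of disease-associated activation, 16 were tested, 0 were called and the median log2 fold change was -0.25. The tetraspanin gene *Cd9* had the lowest value, at 149 and 186 CPM against 76.1 and 56.0 CPM (log2 fold change -1.33, SE 0.20, edgeR adjusted p 0.0825). It was the only 1 of the 16 with an unadjusted p under 0.05, where 8.11% of all genes tested had one. The oligodendrocyte markers in these nuclei were lower too (373 and 224 against 107 and 90.6 CPM), while *Cd9* in oligodendrocyte-like nuclei was itself at 80.6, 112, 73.0 and 66.2 CPM. *Tyrobp*, the adaptor of TREM2, was at 160, 149, 157 and 189 CPM. Some genes of this list had few UMIs, with 0, 1, 0 and 0 of *Cst7*, 1, 0, 0 and 0 of *Gpnmb*, and 9, 7, 2 and 0 of *Lpl*. Others were not near 0, among them *Cd9*, given above, and *Ctsl* at 93.4, 107, 92.5 and 81.0 CPM.

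None of the other lists held a called gene in microglia by edgeR. In the TREM2 and phagocytosis signalling list (11 of 12 tested, median 0.01), the kinase gene *Syk* (201, 218, 283 and 262 CPM) and the phosphatase gene *Inpp5d* (1893, 2038, 2264 and 2515 CPM) were higher at an unadjusted p under 0.05, with adjusted p of 0.514 and 0.548. The lipid handling list (9 of 12 tested, median 0.19) held 2 such genes, the cholesterol exporter *Abcg1* and *Trpv4*. The inflammatory list (8 of 15 tested, median -0.06) held 2 that were lower, *Il1a* and the NF-kB regulator *Nfkbiz* (41.1, 42.4, 14 and 19.2 CPM). Medians were 0.42 for the interferon response (3 of 15 tested, with *Ifi204* higher at an unadjusted p under 0.05), 0.01 for antigen presentation (4 of 9), 0.36 for microglial growth (2 of 6) and -0.31 for ligands (5 of 8, with *Gas6* lower). The MHC class II genes *H2-Aa*, *H2-Ab1* and *H2-Eb1* had no UMI in microglia-like nuclei.

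**Figure D5:**
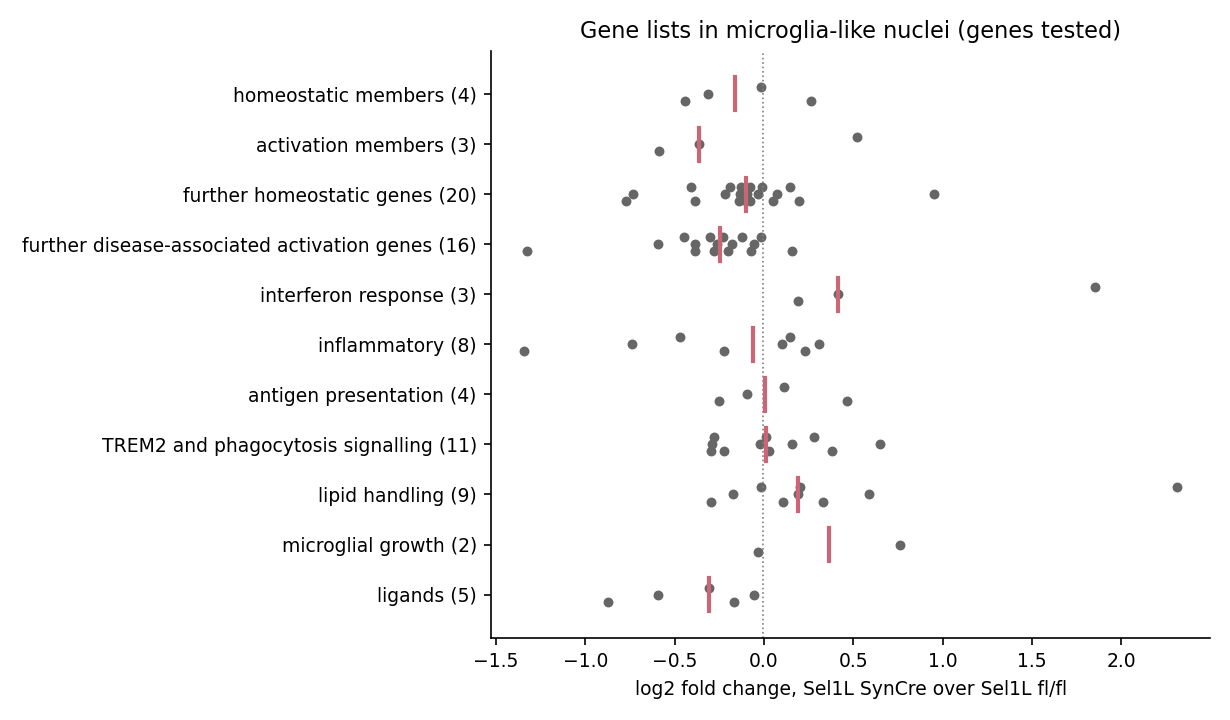
Log2 fold change (x axis) of each gene tested in microglia-like nuclei, by list (rows, number tested in parentheses), with 1 grey point per gene, a red bar at the list's median and a dotted line at the median of all genes. The medians lie between -0.36 for the activation genes of the set and 0.42 for the interferon response list. Each of these 2 medians is the value of 1 of only 3 genes tested.

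The ligands were read in the cells that make them. Their list holds ligands of receptors of the set and of CSF1R, and also *Cd200*, *Tgfb1* and *Tgfb2*, which bind other receptors. *Cx3cl1*, the fractalkine gene whose product binds CX3CR1, was at 68.0 and 67.5 CPM against 83.7 and 106 CPM in neuron-like nuclei (log2 fold change 0.49, SE 0.119, unadjusted p 0.0037, edgeR adjusted p 0.170). Both values labelled Sel1L SynCre were above both others. *Gas6*, a ligand of AXL, was lower in neuron-like nuclei (41.5, 44.0, 29.6 and 34.3 CPM, adjusted p 0.170) and higher in astrocyte-like nuclei (36.1, 55.7, 71.0 and 75.7 CPM, adjusted p 0.209). *Il34*, a ligand of CSF1R made by neurons, was at 21.9, 21.7, 21.5 and 21.0 CPM in neuron-like nuclei, with a log2 fold change of -0.03. It was higher in the endothelial-like class, which is mixed, at 158, 378, 206 and 151 CPM (log2 fold change -0.47, SE 0.438, edgeR adjusted p 0.943). Of the 8 ligands, 0 were called in neurons, where 0.169% of genes were. Of the 6 ligands tested in OPC-like nuclei, where 8.59% of genes were called, 1 was called, *Tgfb2*. It was at 21.3 and 21.0 against 43.7 and 45.7 CPM (log2 fold change 1.08, edgeR adjusted p 0.00284). By the counts given above, the make-up of this class differed between labels.

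Over all 10479 genes tested in microglia, 3 rose and 3 fell past the threshold of edgeR. *Fkbp5*, a co-chaperone of the glucocorticoid receptor that glucocorticoids induce, rose from 190 and 313 CPM to 916 and 1171 CPM (log2 fold change 2.06, SE 0.223, adjusted p 0.0402). The sulfotransferase gene *Sult1a1* rose from 26.5 and 33.6 to 103 and 128 CPM and *Gm12248* from 0.663 and 0.884 to 18.7 and 16.2 CPM. *Il6st*, the signal-transducing subunit of interleukin-6 family receptors, fell from 296 and 306 to 139 and 115 CPM (log2 fold change -1.24, SE 0.147). *St18*, a transcription factor gene of oligodendrocytes, fell from 33.1 and 29.2 to 1.17 and 2.95 CPM. It moved with the oligodendrocyte markers given above, whose part in this call was not tested.

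By their pattern over 28 pseudobulks (7 classes in 4 libraries), the genes most like each member were named by Pearson's r of log2(CPM + 1), as a description in which the points share libraries. These were *Csf3r* (r = 0.985), *Tmem273* (0.984) and *Itgam* (0.983) for *Siglech*, *Ctss* (0.961), *Siglech* (0.952) and *Csf3r* (0.952) for *Cx3cr1*, *Pde3b* (0.953), *Plek* (0.952) and *Csf3r* (0.945) for *P2ry12*, and *Tifab* (0.965), *BC035044* (0.960) and *Nlrp1b* (0.954) for *Trem2*. *Mlph*, *Gm50035* and *Upk1b* were most like *Tmem119* (0.933, 0.933 and 0.929), and *Fcgr2b*, *Gmfg* and *Abcg3* most like *Cd68* (0.957, 0.955 and 0.955). *Apoe* went with *Idh1* (0.922), *Cd63* (0.919) and *Pld2* (0.903), *Axl* with *Pla2g7* (0.847), *Crtc3* (0.846) and *Gm17501* (0.839), and *Spp1* with *Foxd1* (0.983), *Slc22a8* (0.979) and the endothelial gene *Cldn5* (0.978). For *Itgax*, with 19 UMIs over all nuclei kept, the 3 genes were *1810012K08Rik*, *E2f2* and *4930477G07Rik* (0.839, 0.835 and 0.80).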

How the data were processed

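Nuclei were isolated from flash-frozen cortex and hippocampus, stained with propidium iodide, sorted and run on 10x 3′ v3 chips. The authors deposited raw UMI counts per gene and nucleus, made with Cell Ranger 6.1.0 on GRCm38. Whether intronic reads and strand were used in counting is not given in the sources used here. From the counts, nuclei with over 600 genes and under 5% mitochondrial UMIs were kept, and doublets were left out with Scrublet at 0.8% per 1000 nuclei. Integration of the libraries used Seurat 5.3.0 (CCA on 2000 features, the 10 genes removed, with 17 dimensions, resolution 0.2), and clusters were named from at least 3 detected markers. Counts were summed per library and class and tested with the quasi-likelihood test of edgeR 4.0.16 in R 4.3.3 (TMM, filterByExpr, prior count 0.125), two-sided, with Benjamini-Hochberg adjustment over all genes tested and a threshold of 0.05. Each library is 1 mouse, so the 2 libraries per label are biological replicates. CPM divides by the summed UMIs of the class. DESeq2 1.42.0, no filter, other scaling, doublets kept, no integration and leaving out each library were tried as alternatives. The edgeR test was tested on simulated data. Genome positions come from GENCODE annotation of GRCm38, in which 32235 of 32286 features were found, and promoters from RefSeq. The 10 genes and the gene lists were chosen with earlier results of these data known. All 10 genes, all list genes at an unadjusted p under 0.05 and a few well-known members were named, the last chosen after their values were seen. Some genes that these rules would name are not reported here.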

Additional observations from a re-analysis of the deposited data

Results flagged for a closer look

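The log2 fold change of *Apoe* between labels was 0.52 in microglia-like and -0.70 in OPC-like nuclei, of opposite sign. Their difference was 1.15 by an edgeR quasi-likelihood test of the difference itself (SE 0.258, adjusted p 0.00478), and it ran from 0.65 to 1.68 with a library left out, where it passed the threshold only without Sel1L fl/fl replicate 1. *Apoe* was at 203, 195, 336 and 248 CPM in microglia-like nuclei and at 229, 471, 197 and 236 CPM in OPC-like nuclei, where Sel1L fl/fl replicate 2 held the highest value. OPCs were set beside microglia after the data had been seen. By the counts given above, the make-up of the OPC-like class differed between labels, and its part in the difference was not tested.

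The Cre sequence, which no comparison used, had 409 UMIs in replicate 1 of the control label Sel1L fl/fl, against 0 in replicate 2. The libraries labelled Sel1L SynCre had 236 and 221 UMIs. The source of the 409 UMIs was not tested.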

How the results depend on the processing

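With 2 mice per label, differences had a median SE of 0.269 (log2) in microglia. None of the 7 genes tested in microglia was called under any of 13 alternatives, and *P2ry12*, *Tmem119*, *Siglech*, *Trem2* and *Apoe* kept their direction in each. *Cx3cr1* became 0.024 scaled by total UMIs and ran from -0.095 to 0.065 with a library left out, and *Cd68* from -1.58 to 0.37. With a library left out, *Apoe* ran from 0.26 to 0.74, *Tmem119* from 0.12 to 0.40 and *Siglech* from -0.47 to -0.17. The causes of the changes given here were not tested.

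Microglia genes called (6) became 10 under DESeq2, 3 under the earlier edgeR quasi-likelihood method, and 2 to 299 with a library left out (38 without Sel1L fl/fl replicate 1, 299 without replicate 2, and 3 and 2 without Sel1L SynCre replicates 1 and 2). The labels do not say that the replicate numbers pair mice, and the deviations of the replicates numbered 1 correlated at 0.154 over genes. Since replicate 1 of each label was male and replicate 2 female, a replicate block is also a block for sex. The main test held no such term. With a replicate block, 23 microglia genes were called, 17 in astrocytes, 590 in oligodendrocytes and 450 in neurons.

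Astrocyte calls (139) became 86 under DESeq2, 83 without a filter, 57 with doublets kept and 160 to 460 with a library left out. Oligodendrocyte calls (104) became 2 without a filter, 47 with doublets kept and 0 to 204 with a library left out. OPC calls (994) became 457 under DESeq2, 563 without a filter, 556 with doublets kept and 635 to 1028 with a library left out, and the 1 call of *Apoe* there became 0 in the first 3 and 0 to 1 with a library left out. Neuron calls (34) became 455 under DESeq2, 2 without a filter, 21 with doublets kept and 68 to 234 with a library left out, where the genes of the set called ran from 0 to 1 (*Apoe*, without Sel1L SynCre replicate 2, adjusted p 0.0359 by edgeR). Endothelial calls (0, with 465 at an unadjusted p under 0.05) became 4 under DESeq2 and 12 without a filter. Genes that differed between microglia and astrocytes (130) became 4 under DESeq2, 39 with doublets kept, 5 to 138 with a library left out, and, chosen after seeing the data, 312 with OPCs in place of astrocytes, 1 of them in the set.

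The difference in the share of nuclei with *Tmem119* (-0.70 points) became 1.53 thinned to 1000 UMIs, 4.11 unthinned, 0.599 with doublets kept and 2.90 in the whole cluster with perivascular macrophages, and ran from -4.12 to 2.73 with a library left out. The share with *P2ry12* (-6.72 points) became -12.3 thinned to 1000 UMIs. With a library left out, the shares ran from -11.2 to -2.26 points for *P2ry12*, -2.74 to 5.19 points for *Cx3cr1*, -5.44 to 4.39 for *Siglech*, -3.73 to 1.06 for *Cd68* and 0 to 0.549 for *Spp1*, which was 0 in the whole cluster. The activation share became -1.20 points without *Apoe* and 3.82 in the whole cluster. Elsewhere, directions turned for *Axl* in astrocytes (-0.75 to 0.10 with a library left out), *Apoe* in oligodendrocytes (0.020 with doublets kept, -0.56 to 0.46 with a library left out), *P2ry12* in neurons (-0.21 to 0.19) and *Apoe* in endothelial nuclei (-0.019 to 0.70).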

Other observations

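The summed markers of the remaining cell types in microglia-like nuclei were 201, 85.9, 333 and 163 CPM for choroid plexus, with *Otx2* at 0, and 6.5, 9.64, 17.6 and 4.53 CPM for monocytes and other leukocytes, with *Ly6c2*, *S100a8* and *Cd3e* at 0. Endothelial markers summed to 42.3, 35.1, 39.9 and 31.7 CPM. *Cx3cr1* in astrocyte-like nuclei was at 11.8 and 19.9 CPM against 32.5 and 27.5 CPM (log2 fold change 0.99, edgeR adjusted p 0.224), and *Cd68* in neuron-like nuclei at 0.641 and 0.786 CPM against 1.14 and 1.62 CPM (0.91, adjusted p 0.260).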
